A study of Mus musculus with 6 samples.

Results

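Carbonic anhydrases were followed in mouse skin through 10 genes of the family, Car1, Car2, Car3, Car4, Car5b, Car6, Car8, Car9, Car12 and Car13. They were represented by 21 probe sets whose only annotated gene was a member, of 45101 probe sets and 18193 named genes on the array. The members were chosen from the family with the signals of this same wild-type against knock-in comparison already known. Their differences between the groups are therefore given as a description. Skin RNA came from 3 wild-type and 3 knock-in mouse samples on a C57BL/6 background, each on 1 single-channel Affymetrix array. The labels give the knock-in only the genotype code KA and the source name KAB6, without naming the altered gene. Sex, age, body site and treatment are not stated, nor is it stated whether each sample was a different mouse. P-values here cover only the spread between these samples, which may be technical.

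Carbonic anhydrases are zinc enzymes that interconvert carbon dioxide and bicarbonate, releasing or taking up a proton. Family members work in different places: in the cytosol, in mitochondria, in secreted fluids, or on the cell surface. In epithelia, muscle, fat, red cells and blood vessels they serve pH control, ion transport and the removal of carbon dioxide, together with bicarbonate transporters and proton exporters.

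The largest difference in the family was that of the surface enzyme Car4, which was low on every wild-type array and far higher on every knock-in array. The surface enzyme Car12 and the cytosolic enzyme Car2 were more than 2-fold higher in knock-in, and the mitochondrial enzyme Car5b was higher by less. The secreted enzyme Car6 was lower by more than 2-fold, and the cytosolic enzyme Car3 was lower by a smaller margin. Car13 differed by less than its spread, and Car1, Car8 and Car9 were too dim to be tested.

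Signals are linear intensities. Differences are log2(signal + 16) of knock-in less that of wild-type, with their standard errors, and this offset understates the folds of dim genes. Errors of signals are SDs (n = 3). A gene was tested when its signal exceeded the array's own median, 37.5 to 45.7, on at least 3 arrays, and called at a Benjamini-Hochberg adjusted p under 0.05 in limma. Of the 10 members, 7 were tested and 3 fell below this filter. Among those tested, 4 were called higher and 2 lower in knock-in, and 1 was not called. Over all 11680 genes tested, 31.1% were called, 14.8% higher and 16.3% lower, so calls were common on these arrays. The groups did not overlap for 6 of the 7 members tested, against 47.1% of all genes tested. Because the members were named with this comparison in view, nothing is read from these counts. Car4 passed the filter through the knock-in arrays alone.

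Replicates resembled each other, with Pearson's r of 0.975 to 0.985 within groups and 0.880 to 0.917 between them, across the genes tested. Signals of different probe sets are not compared with each other, since each has its own affinity. Keratinocyte genes were present as the tissue label implies: Krt14 and Krt5, keratins of the basal epidermis, had wild-type mean signals of 6250 and 5713. Xist, the RNA of the inactive X chromosome, had a mean of 29.7 over wild-type and 3730 over knock-in arrays, and the Y-linked gene Eif2s3y had means of 687 and 5.04. Sex and genotype therefore cannot be told apart in any difference given here. All genes tested had a median difference of -0.02 (log2). When each array was centred on its median it became 0.11, and the share of calls that were higher went from 47.5% to 68.1%. In whole skin, fewer cells of a type and less RNA per cell cannot be told apart either.

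**Figure D1:**
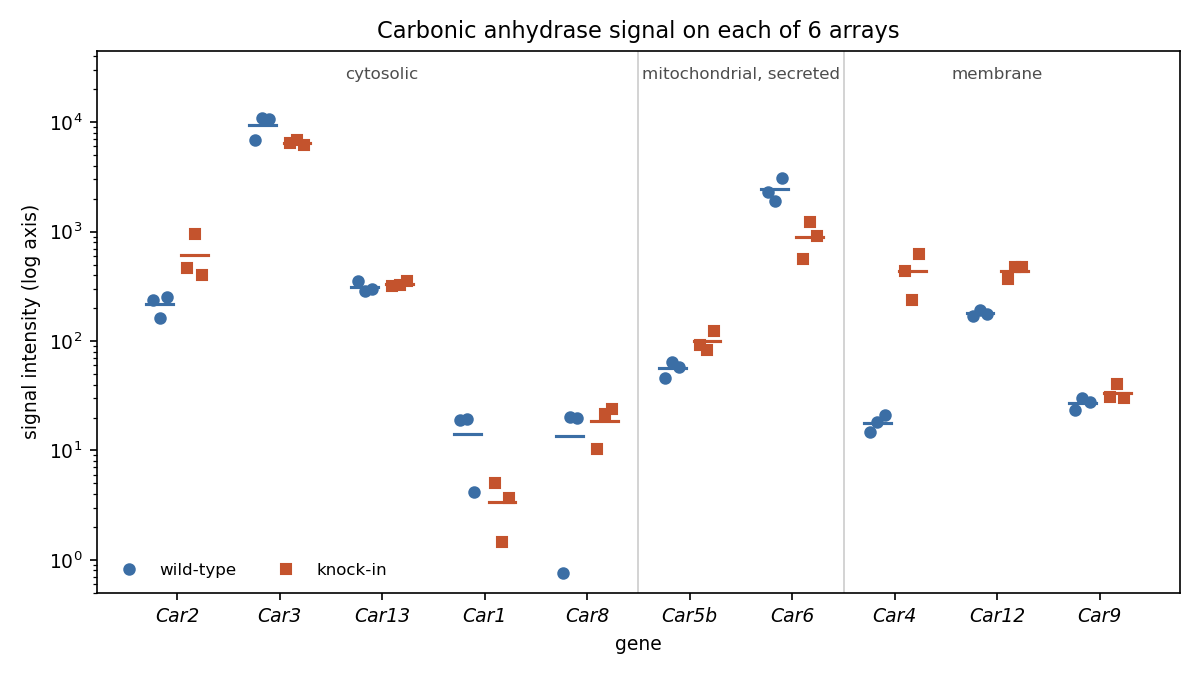
Signal intensity (log axis) of the 10 carbonic anhydrase genes on each array, 1 probe set per gene, ordered by where the enzyme works. Circles are 3 wild-type and squares 3 knock-in arrays, and bars are group means. The groups stand apart for Car2, Car3, Car5b, Car6, Car4 and Car12 and overlap for Car13, Car1, Car8 and Car9.

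Among the surface enzymes, Car4 is anchored to the outer face of the membrane by a lipid, and is known from capillary endothelium and from epithelia. Its signal (probe set 1448949_at) was 14.6, 18.2 and 21.1 on the wild-type arrays and 440.4, 235 and 622 on the knock-in arrays. All 3 knock-in arrays lay above every wild-type array, and knock-in replicate 2 was the lowest of its group. The wild-type signals lay below the median of every array, so the size of the difference depends on the offset. It was 3.62 ± 0.29 (log2) with the offset of 16, 4.42 with an offset of 1 and 2.52 with an offset of 64. The second Car4 probe set, 1418094_s_at, went from 13.4 ± 7.98 to 296 ± 136, a log2 difference of 3.33 ± 0.35, and it ordered the 3 knock-in arrays in the same way.

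Car12, a transmembrane enzyme with its active site outside the cell, had signals of 169, 194 and 178 in wild-type and 369, 473 and 476 in knock-in (1428485_at). The groups were well separated and each was tight. The log2 difference was 1.21 ± 0.12, and 361 genes had a larger one. Its within-group SD on the log2 scale was 0.16, close to the median of 0.14 for genes of like signal. The other Car12 probe sets were dim and overlapped between the groups. They had means of 19.0 and 38.5 (1447762_x_at) and of 1.38 and 2.74 (1446517_at) in wild-type and knock-in. With the mean over all its probe sets the difference of Car12 was 0.62.

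Car9, the other transmembrane enzyme and in human tumours a well-known marker of hypoxia, had 1 probe set, 1427013_at. Its signals were 23.3, 30.3 and 27.7 in wild-type and 30.9, 40.5 and 30.1 in knock-in. The groups overlapped, and 1 of the 6 arrays exceeded its median, so no difference was tested for Car9.

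The promoters of the 3 surface enzymes are shown because Car4 and Car12 were higher together while Car9 stayed dim. The bases are those of RefSeq on build GRCm38.p6, the 250 bases before each gene's start, 5′ to 3′ on the gene's strand. The table held promoters for 5 of the 10 members, the others being Car5b and Car6. The windows lie at chr11:84957504-84957753 (+ strand) for Car4, chr9:66713436-66713685 (+ strand) for Car12 and chr4:43506776-43507025 (+ strand) for Car9. Capitals mark the core of the hypoxia-inducible factor (HIF) motif, ACGTG or GCGTG, and the AP-1 motif TGAGTCA, each searched on both strands.
Car4: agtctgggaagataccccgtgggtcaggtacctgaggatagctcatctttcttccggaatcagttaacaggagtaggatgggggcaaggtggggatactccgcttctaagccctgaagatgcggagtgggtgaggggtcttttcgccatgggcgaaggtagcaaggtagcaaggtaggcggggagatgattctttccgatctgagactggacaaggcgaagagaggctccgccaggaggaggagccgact
Car12: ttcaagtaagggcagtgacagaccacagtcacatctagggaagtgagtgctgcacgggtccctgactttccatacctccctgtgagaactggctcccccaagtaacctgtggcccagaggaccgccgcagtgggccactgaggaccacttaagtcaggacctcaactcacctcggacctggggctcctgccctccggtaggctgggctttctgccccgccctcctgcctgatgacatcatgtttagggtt
Car9: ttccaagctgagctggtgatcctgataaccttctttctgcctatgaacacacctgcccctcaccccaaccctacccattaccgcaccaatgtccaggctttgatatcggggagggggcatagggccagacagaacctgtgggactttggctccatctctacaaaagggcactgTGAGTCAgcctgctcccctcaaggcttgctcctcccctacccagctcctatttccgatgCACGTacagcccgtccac

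The Car9 window held CACGT, the ACGTG core read on the other strand, starting 18 bases before the gene's start, and TGAGTCA starting 77 bases before it. The Car4 and Car12 windows held neither core nor the AP-1 motif. Of 32851 promoter windows of the same length, 38.6% held a HIF core in either form and 4.46% held the AP-1 motif. The Car4 window had 11 CpG pairs, Car12 had 6 and Car9 had 5, where the median promoter had 6. A match of letters is a description and no evidence that a factor binds there.

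The cytosolic members include 4 genes that lie side by side on chromosome 3, in the order Car13, Car1, Car3 and Car2 on assembly GRCm38.p6, with no other protein-coding gene between them. These neighbours did not move together: Car2 was higher, Car3 lower, Car13 near 0, and Car1 too dim to test.

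Car2 is the fast cytosolic enzyme of many secreting epithelia, red cells and osteoclasts. Its signal (1448752_at) was 235, 162 and 253 in wild-type and 465, 960.3 and 399 in knock-in. Every knock-in array exceeded every wild-type array, and knock-in replicate 2 stood far above the others. The log2 difference was 1.34 ± 0.30. Without knock-in replicate 2 it was 0.97 and still called. The within-group SD of Car2 was 0.52 on the log2 scale, larger than that of 99.2% of 2604 genes of like signal.

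Car3 is a cytosolic enzyme of low activity, abundant in fat cells and slow muscle fibres. The probe set that stands for it, 1449434_at, gave 6942, 10867 and 10625 in wild-type and 6426, 6820 and 6193 in knock-in. The groups did not overlap, but wild-type replicate 1 lay just above the highest knock-in array. The log2 difference was -0.52 ± 0.17. The call was lost when any array but wild-type replicate 1 was left out, with differences from -0.56 to -0.41. It was also lost with median centring (-0.39) and with the mean over probe sets (-0.66). Without wild-type replicate 1 the difference was -0.73 and was called.

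All 4 Car3 probe sets were lower in mean signal in knock-in, and wild-type replicate 1 was the lowest wild-type array in each. Probe set 1460256_at went from 2784, 5295 and 3953 in wild-type to 2040, 2345 and 2697 in knock-in, a log2 difference of -0.72 ± 0.20 that was called. The other probe sets, 1430584_s_at and 1453588_at, overlapped between the groups and were not called, with log2 differences of -0.75 ± 0.36 and -0.63 ± 0.40.

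Car13, another cytosolic enzyme, had signals of 355, 289 and 297 in wild-type and 322, 324 and 357 in knock-in (1421307_at). The groups overlapped, and the log2 difference of 0.09 ± 0.11 was not called. Its probe sets disagreed. Of the 3, 1439620_at gave 71.4, 66.8 and 67.8 in wild-type and 51.0, 50.5 and 40.6 in knock-in, without overlap, and was called lower (-0.42 ± 0.14), while 1421308_at was not called (-0.14 ± 0.12). With the mean over probe sets Car13 had a difference of -0.16, so no direction is given for this gene.

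Car1, the enzyme of mature red cells, and Car8, which lacks enzyme activity and binds a calcium channel receptor of the endoplasmic reticulum, were dim on all arrays. Car1 (1416193_at) had signals of 19.1, 19.3 and 4.13 in wild-type and 5.04, 1.44 and 3.64 in knock-in, which overlapped. The 3 probe sets of Car8 had group means between 12.3 and 18.6 and overlapped between the groups. Without detection calls in the deposited table, these signals cannot be called absent.

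Car5b, the mitochondrial enzyme, had signals of 46.0, 65.0 and 57.6 in wild-type and 92.8, 83.2 and 122.8 in knock-in (1447928_at). The groups did not overlap, though both were near the lower end of what was tested. The log2 difference was 0.67 ± 0.17. It was 0.69 without wild-type replicate 3 and 0.53 without knock-in replicate 3, and was then not called. Its other probe set, 1419705_at, gave 43.2 ± 11.1 and 84.5 ± 8.16, a log2 difference of 0.78 ± 0.17. Car5b is the 1 member on the X chromosome, and the groups differed in Xist and in Y-linked signal as given above.

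**Figure D2:**
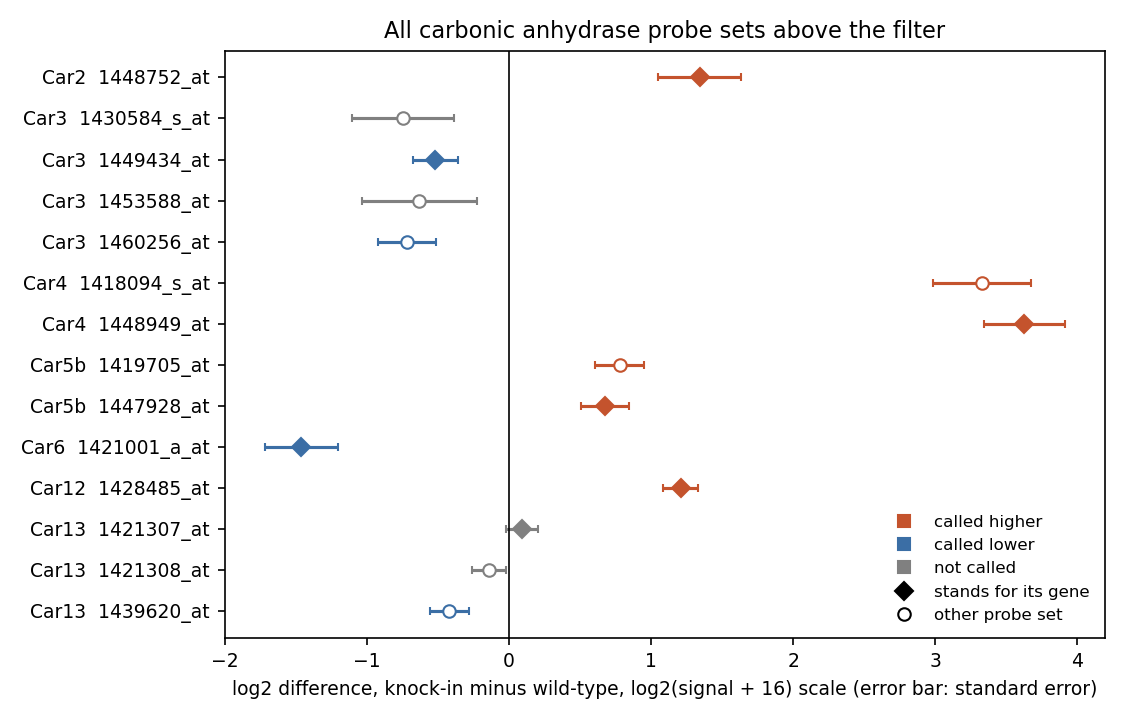
Log2 difference (knock-in minus wild-type, log2(signal + 16) scale) with its standard error for the 14 carbonic anhydrase probe sets above the filter. Diamonds mark the probe set that stands for its gene, and colours mark the call over all probe sets. The 2 probe sets of Car4 and the 2 of Car5b lie on the same side, all 4 of Car3 lie below 0, and the 3 of Car13 lie on both sides of 0.

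Counted by probe set, 14 of the 21 passed the filter, and 6 were called higher and 4 lower in a fit over 23153 probe sets, of which 30.3% were called in either direction. Probe sets of 1 gene read the same RNA and are not replicates.

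Car6 is the secreted member, known from saliva. Its signal (1421001_a_at) was 2309, 1911 and 3102 in wild-type and 564, 1224 and 913 in knock-in. No knock-in array reached the lowest wild-type array, and knock-in replicate 1 was the lowest. The log2 difference was -1.46 ± 0.27, from -1.71 to -1.17 over its 18 alternatives, all called. Its within-group SD of 0.46 was larger than that of 96.6% of 736 genes of like signal.

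The Car6 promoter is printed as that of the member with the larger decrease, from chr4:150201136-150201385 (- strand) on GRCm38.p6, with HIF cores in capitals.
Car6: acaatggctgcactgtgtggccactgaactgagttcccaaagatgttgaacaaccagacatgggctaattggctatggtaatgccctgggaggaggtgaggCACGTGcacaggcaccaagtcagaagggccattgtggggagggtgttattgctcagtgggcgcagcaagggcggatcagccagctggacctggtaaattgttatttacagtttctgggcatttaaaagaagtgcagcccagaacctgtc

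Its CACGTG, which starts 149 bases before the gene's start, is the ACGTG core read on both strands. The window had 3 CpG pairs. Of the members with a promoter in the table, Car5b had 5 GCGTG cores on either strand in a window with 12 CpG pairs.

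The genes whose pattern over the 6 arrays was most like that of a member were found by the root mean square distance between mean-centred log2(signal + 16) values, over all genes tested. For Car6 the nearest were Krt28 and Krt73, keratins of the inner root sheath of the hair follicle, and the homeobox factor Dlx3, at distances of 0.08, 0.09 and 0.10. Krt28 had signals of 4694, 3836 and 5892 in wild-type and 1062, 2353 and 1564 in knock-in. Its order over the arrays was that of Car6 within each group. For Car4 the nearest were Acod1, which makes itaconate in activated macrophages, Ms4a8a, and Serpina3n, an acute-phase protease inhibitor, at 0.19, 0.24 and 0.24. For Car2 they were Chil4, the hyaluronan synthase Has3 and the EGF receptor ligand Hbegf, at 0.18, 0.18 and 0.22. Chil4 is near-identical to other chitinase-like genes, so its probe set may read them too. Acod1, Ms4a8a and Chil4, like Car4, passed the filter through the knock-in arrays alone, so their distances depend on the offset. Each of these lists is a description over 6 arrays in 2 groups.

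**Figure D3:**
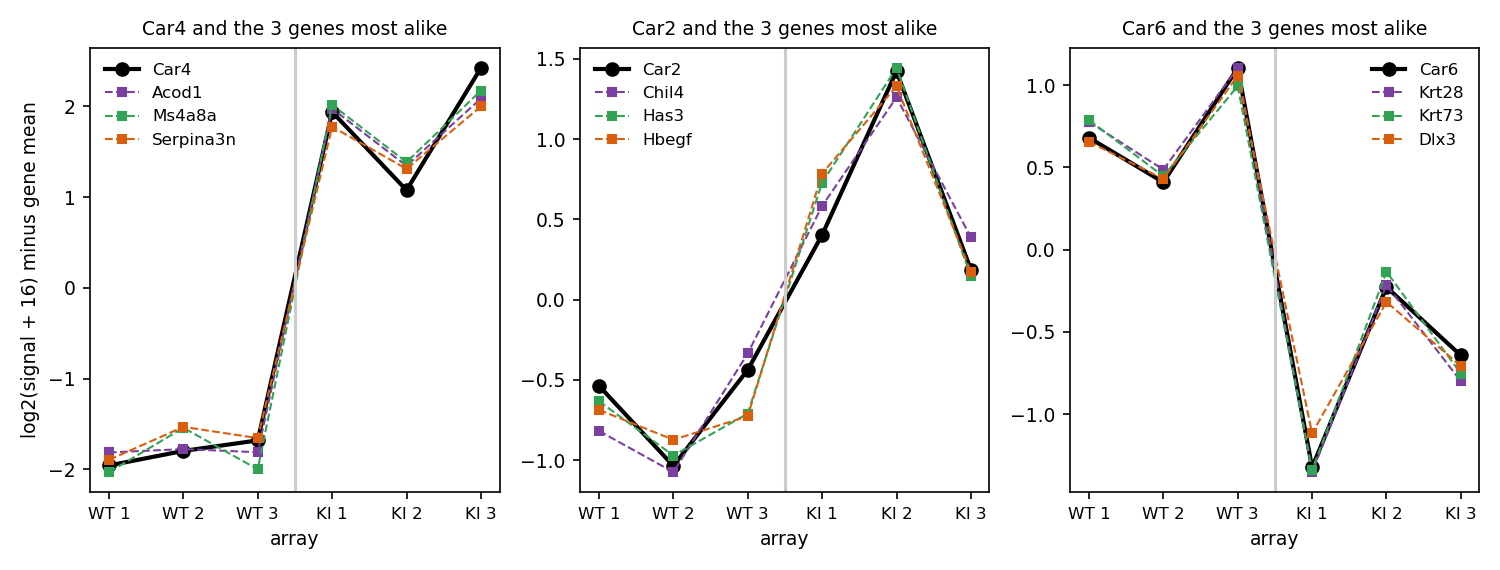
Mean-centred log2(signal + 16) on the 3 wild-type (WT) and 3 knock-in (KI) arrays for Car4, Car2 and Car6 (black) and the 3 genes nearest to each (coloured, dashed). Krt28 and Krt73 lie at root mean square distances of 0.08 and 0.09 from Car6 over the 6 arrays, while the neighbours of Car4 and Car2 lie at 0.18 to 0.24.

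Hair follicle markers moved in the same direction as Car6. All 16 tested markers fell, with a median log2 difference of -1.67, where 16.3% of all genes were called lower. All 16 were also called lower with each array left out in turn. The hair shaft keratins Krt35 (-2.21 ± 0.28) and Krt33b (-2.17 ± 0.27) were those named by the rule. Their summed signal was 78433, 64046 and 81949 on the wild-type arrays and 20610, 37574 and 29690 on the knock-in arrays, the same order over the arrays as that of Car6. The part of hair follicle content in the Car6 difference was not tested.

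Blood endothelial markers moved in the same direction as Car4. Of 10 markers, 9 rose, 0 fell and 1 did not pass, where 14.8% of all genes were called higher. The median log2 difference of the markers was 1.06. Emcn, a sialomucin of capillaries and veins, went from 103 ± 16.2 to 435 ± 27.6 (1.92 ± 0.12). With an array left out, 8 or 9 rose. Tie1, an endothelial receptor among the 9, passed the filter through the knock-in arrays alone. Egfl7, secreted by endothelial cells, rose by 1.30 ± 0.10, or by 0.62 with shared probe sets left out. The summed signal of the 10 markers was 1143, 1365 and 1201 on the wild-type arrays and 2692, 2771 and 2941 on the knock-in arrays. This order over the arrays was not that of Car4, for which knock-in replicate 2 was the lowest of its group. The part of endothelial content in the Car4 difference was not tested.

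Fat and muscle markers were set beside Car3. Of 10 adipocyte markers, 2 rose, 1 fell and 7 did not pass, where 31.1% of all genes were called. Pck1 rose by 1.16 ± 0.20, and Lpl, the lipoprotein lipase, fell by 0.44 ± 0.10 but did not pass with median centring. Their summed signal overlapped between the groups, at 12815 to 17676 in wild-type and 15583 to 18534 in knock-in, and wild-type replicate 1 was the lowest of all 6 arrays. For Car3 it was the lowest of the wild-type arrays but above every knock-in array. The largest part of the adipocyte sum was Fabp4, at 7457 ± 1078 in wild-type and 8858 ± 289 in knock-in, which was not called (0.26 ± 0.12). With median centring 4 adipocyte markers rose and 0 fell. Of the adipocyte markers, 3 rose and 2 fell without wild-type replicate 1, 4 rose without wild-type replicate 2, and 1 rose without knock-in replicate 3.

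Of 6 tested slow muscle markers, 4 rose, 0 fell and 2 did not pass, where 31.1% of all genes were called. The count that rose was 1 without wild-type replicate 3, 2 without wild-type replicate 2 and 3 without knock-in replicate 1 or 2. It was 5 without wild-type replicate 1. Myoz2 went from 111 ± 38.0 to 513 ± 306 (1.97 ± 0.37). Tnnt1, slow troponin T, rose by 1.69 ± 0.42 but did not pass without wild-type replicate 3. Knock-in replicate 1 was the highest array for both. It gave 865 for Myoz2, beside 327 and 345 on the other knock-in arrays, and 419 for Tnnt1, beside 180 and 209. Below the filter, the slow myosin Myh7 went from 14.4 ± 14.0 to 60.8 ± 22.1 without overlap, and Myl3 overlapped. Of 12 fast muscle markers, 0 rose, 7 fell and 5 did not pass, where 31.1% of all genes were called. The calcium-binding Pvalb (-3.40 ± 0.22) and the fast myosin Myh4 (-1.75 ± 0.18) were the leading ones. Of those that did not pass, the fast myosins Myh2 (1.00 ± 0.36) and Myh1 (0.30 ± 0.28) lay above 0. Acta1 (0.01 ± 0.18) lay near 0, and Mylpf (-0.68 ± 0.26) and Tnni2 (-0.65 ± 0.26) below it. Without knock-in replicate 2, 1 fast marker rose and 5 fell. The summed slow markers did not overlap, at 261 to 620.3 in wild-type and 869 to 2073 in knock-in, whereas the fast markers did, at 50281 to 76884 and 30672 to 52749. The part of fat or muscle content in the Car3 difference was not tested.

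Red cell markers were few. Of 11 erythroid genes on the array, 4 were tested, of which 1 rose and 2 fell, where 31.1% of all genes were called. Those that fell were Hba-a2 and Slc4a1, which is also counted among the bicarbonate transporters below. The count that fell was 1 with shared probe sets left out, where Slc4a1 was not called. With the mean over probe sets it was 3. Hba-a2, an alpha globin, fell from 110 ± 5.87 to 45.1 ± 2.81 (-1.04 ± 0.12), and Alas2, the heme synthesis enzyme of red cells, went from 27.8 ± 6.75 to 88.7 ± 6.87 (1.27 ± 0.16). Alas2, the 1 gene that rose, passed the filter through the knock-in arrays alone. The other 7 were below the filter and not tested. Of these, the beta globin Hbb-b2 went from 27.3 ± 5.27 to 43.2 ± 7.32 without overlap. The rest overlapped between the groups, with means higher in knock-in for Hba-a1, Ermap and Rhag and lower for Epb42, Klf1 and Rhd. The signal of all 11, summed, was 668 to 757 in wild-type and 520 to 590 in knock-in. The largest part of this sum was Bpgm, at 383 ± 45.4 and 294 ± 52.8, which was tested and not called (-0.37 ± 0.15).

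The rest of the family was dim. Car5a, Car7, Car10, Car11, Car14 and Car15 were below the filter, with their highest signals on any array between 12.9 for Car5a and 40.9 for Car11. Both receptor tyrosine phosphatases that carry a carbonic anhydrase-like domain on their outer part were called higher. Ptprz1 went from 58.8 ± 12.9 to 137 ± 17.4 (1.04 ± 0.16), and Ptprg from 102 ± 13.4 to 173 ± 19.6 (0.68 ± 0.13). Ptprg was not called with shared probe sets left out (0.16) or with the mean over probe sets (0.36).

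Bicarbonate transporters, which carry the product of the enzymes across membranes, included 2 that were called. Of 8 tested, 0 rose, 2 fell and 6 did not pass, where 31.1% of all genes were called. The median log2 difference was -0.01, beside -0.02 for all genes, with members on both sides of 0. Slc26a7, an anion exchanger, went from 67.6 ± 20.4 to 16.3 ± 4.13 (-1.35 ± 0.22), and passed the filter through the wild-type arrays alone. Slc4a1, the anion exchanger of red cells, went from 98.3 ± 14.9 to 35.2 ± 8.09 (-1.16 ± 0.17), but was not called with shared probe sets left out (-0.74). Slc4a2 and Slc4a8, which exchange chloride for bicarbonate, had differences of 0.22 ± 0.10 and 0.41 ± 0.20 that did not pass, though Slc4a2 was called with median centring (0.36).

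Of 8 proton and lactate exporters tested, 1 rose, 2 fell and 5 did not pass, where 31.1% of all genes were called. Their median log2 difference was -0.46. Of the exporters below the filter, Slc16a3 and Slc9a5 were higher and Slc9a7 lower in knock-in without overlap, and the rest overlapped. The lactate carrier Slc16a1 went from 657 ± 142 to 1377 ± 111 (1.07 ± 0.16), or by 0.63 with the mean over probe sets. The related carrier Slc16a7 (-1.06 ± 0.21) and the sodium-proton exchanger Slc9a2 (-0.79 ± 0.16) fell. Bsg, the partner that brings lactate carriers to the membrane, had a difference of 0.31 ± 0.10 (limma, adjusted p = 0.0504), and was called with median centring (0.44) or without wild-type replicate 1 (0.40). Without wild-type replicate 1, 2 of the exporters rose and 3 fell.

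Of 20 tested subunits of the vacuolar proton pump, 6 rose, 3 fell and 11 did not pass, with a median log2 difference of 0.03. Atp6v0e2 (-1.15 ± 0.14) and Atp6v1c2 (-0.57 ± 0.09) fell. Tcirg1, the membrane subunit of osteoclasts, and Atp6v1e1 rose by 0.56 ± 0.13 and 0.37 ± 0.09, and Atp6v1e1 was not called without knock-in replicate 3 (0.34), with shared probe sets left out (0.34) or with the mean over probe sets (0.20). The count of subunits that rose depended on the arrays, at 1 without knock-in replicate 3, 2 without wild-type replicate 3, 3 without knock-in replicate 1 or 2, and 4 without wild-type replicate 1 or 2.

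Targets of hypoxia-inducible factors, other than Car9 and Car12, were counted next. Of 16 tested, 10 rose, 0 fell and 6 did not pass, where 14.8% of all genes were called higher. Their median log2 difference was 0.57, and 9 to 11 rose with an array left out. Kdm3a (0.02 ± 0.09) and Pdk1 (0.04 ± 0.10), both named after their values were seen, were among the 6 that did not pass. The glucose carrier Slc2a1 went from 342 ± 28.7 to 1784 ± 100.5 (2.33 ± 0.10), the vasodilator peptide Adm from 91.2 ± 22.0 to 294 ± 82.7 (1.52 ± 0.21), and the glycolytic enzyme Pgk1 from 2149 ± 101 to 3402 ± 230.0 (0.66 ± 0.09). Egln3, an oxygen-sensing hydroxylase, rose by 0.78 ± 0.08, or by 0.42 with the mean over probe sets. In the same samples Car12 was higher and Car9 lay below the filter.

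**Figure D4:**
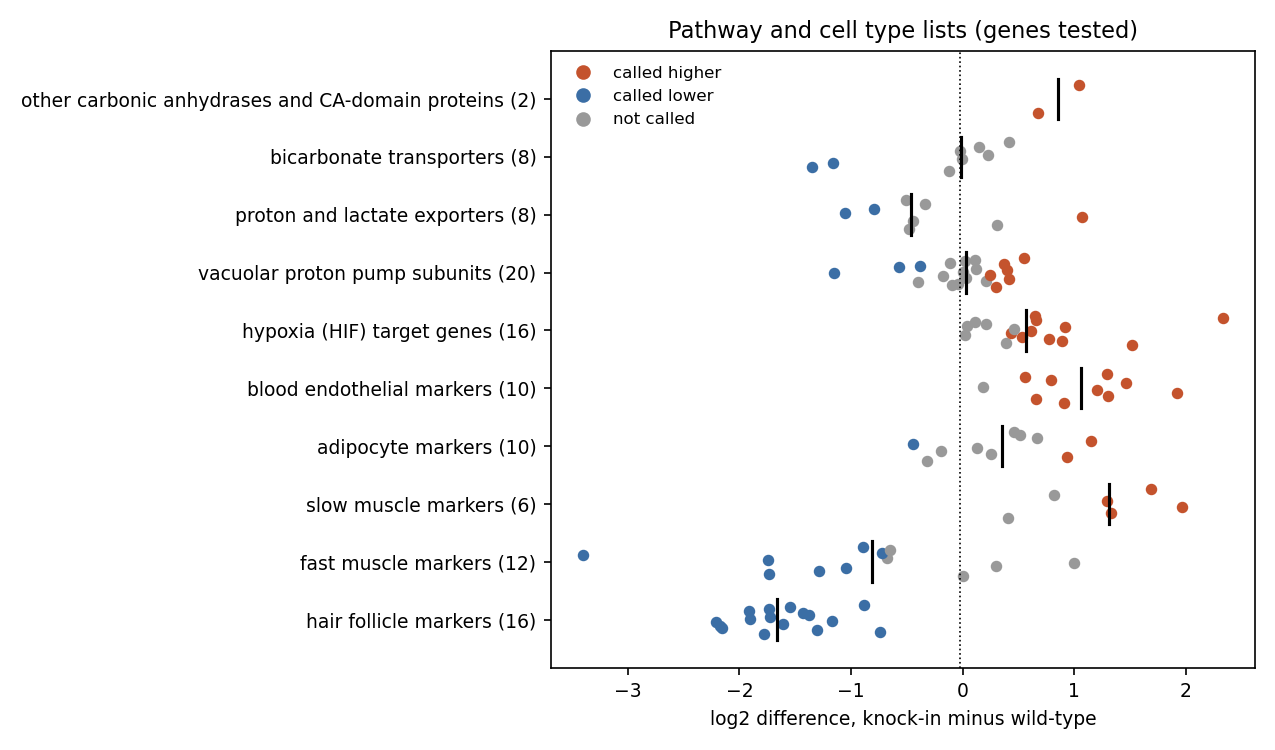
Log2 difference (knock-in minus wild-type) of each tested gene in the pathway and cell type lists, with the number tested in parentheses. Colours mark the call, black bars the median of each list, and the dotted line the median of all genes tested (-0.02). All 16 hair follicle markers lie below 0 and all 10 endothelial markers above it, while bicarbonate transporters centre on -0.01.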

How the data were processed

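Skin RNA of 3 wild-type and 3 knock-in samples was read on 1 array each. The deposited table holds linear signal intensity values that the authors made with MAS5, per the submitters' processing notes. Its version is not given in the sources used here. After trimming 2% at each end, each array averaged 150.0, which shows a common scaling, and no further scaling was applied.

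Of 45101 probe sets, 64 controls were left out, and 34945 of the others had 1 gene symbol, 932 several and 9160 none in the platform annotation. Names were checked by gene ID against RefSeq (34741 matched, 0 symbols changed). The probe set with the highest mean stood for a gene. Of 18193 genes, 11680 exceeded the array's median on at least 3 arrays and entered the test. Values of log2(signal + 16) were fitted by lmFit and eBayes with trend (limma 3.58.1, R 4.3.3, two-sided), Benjamini-Hochberg adjusted over all genes, threshold 0.05. The same fit was run on 23153 probe sets. The script was tested on simulated data. Precision is limited by the number of arrays, and the standard error of a log2 difference had a median of 0.13.

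The members, the lists and the tests were chosen with earlier results of these data known. List genes named are the 4 (pathways) or 2 (cell types) with the smallest unadjusted p among those tested; other list genes named as below the filter, not called or outside these numbers were chosen after their values were seen. Alternatives were the offset, the filter, quantile normalization, median centring, the variance prior, array weights, the mean over probe sets, leaving out shared probe sets, the replicate number as a block, and leaving out each array. Leaving out X- and Y-linked genes was chosen after seeing the data. Protein sequences were not used here.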

Additional observations from a re-analysis of the deposited data

How the results depend on the processing

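Over the alternatives run, Car2, Car4, Car6 and Car12 kept their direction and their call: Car2 from 0.97 to 1.58, Car4 from 2.52 to 4.42, Car6 from -1.71 to -1.17 and Car12 from 0.62 to 1.34. Car4 had no value under the stricter filter, which requires all 6 arrays, and Car5b none without X- and Y-linked genes, where 3 carbonic anhydrases were called higher. Car5b stayed between 0.44 and 0.81 and lost its call in 2 of 17 alternatives, Car3 between -0.73 and -0.39 and lost its call in 10 of 18. The count of carbonic anhydrases called lower was 1 in place of 2 with no filter, median centring, no variance trend, the mean over probe sets or the replicate block, and ranged from 1 to 2 with an array left out. Car13 turned to -0.16 with the mean over its probe sets.

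Genes called lower numbered 1908, and 1202 with median centring, where those called higher went from 1729 to 2567. With an array left out, genes called lower ranged from 1225 (without wild-type replicate 3) to 1751. With the replicate number as a block there were 1263 lower and 1186 higher. Deviations of same-numbered samples correlated at -0.25, -0.41 and -0.02, and no sample correlated best with its own number. This gave no sign that the numbers pair the samples, but it cannot exclude a shared litter or day. Signals below the array median limit what can be said of Car1, Car8 and wild-type Car4, and of Car9, which exceeded it on 1 array.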

Other observations

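Other cell types that are known to use carbonic anhydrases were counted as well. Of 6 macrophage and osteoclast markers tested, 2 rose, 1 fell and 3 did not pass, where 31.1% of all genes were called. The gelatinase Mmp9 went from 68.4 ± 4.02 to 362 ± 165 in mean signal (SD, n = 3), a log2 difference of 2.07 ± 0.27, and the acid phosphatase Acp5 rose by 0.78 ± 0.12. The protease Ctsk, which osteoclasts use to degrade bone matrix, was the 1 that fell, from 3467 ± 959.5 to 1875 ± 109.7 (-0.85 ± 0.18). Csf1r (0.07 ± 0.20), Adgre1 (0.14 ± 0.24) and Cd68 (0.65 ± 0.23) did not pass. Ctsk and these 3 were named after their values were seen. The osteoclast genes Calcr, Dcstamp and Ocstamp, named after their values were seen, were below the filter. Their highest signals on any array lay between 6.93 and 18.3. Ocstamp went from 1.33 ± 0.69 to 17.5 ± 0.79 and Calcr from 0.84 ± 0.28 to 3.21 ± 3.23 without overlap, while Dcstamp overlapped.

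Of 6 sebaceous gland markers tested, 1 rose, 1 fell and 4 did not pass, where 31.1% of all genes were called. Elovl3, an elongase of very long fatty acids, rose from 952 ± 378 to 2867 ± 228 (1.64 ± 0.24), while the desaturase Scd3 fell from 642 ± 268 to 238 ± 36.0 (-1.31 ± 0.24). Without wild-type replicate 3, 2 sebaceous markers fell. Of 8 keratinocyte markers tested, 2 rose, 0 fell and 6 did not pass, where 31.1% of all genes were called. Krt14 and Krt5 rose by 0.73 ± 0.11 and 0.52 ± 0.09, and 1 marker fell without knock-in replicate 1. Of those that did not pass, Krt1 (0.39 ± 0.18) and Col17a1 (0.33 ± 0.19) lay above 0. Trp63 (0.01 ± 0.10) lay near 0, and Krt10 (-0.14 ± 0.17), Lor (-0.17 ± 0.19) and Dsp (-0.07 ± 0.12) below it. Krt2, below the filter, went from 27.0 ± 15.4 to 5.54 ± 6.83 without overlap.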
